A study of Homo sapiens with 6 samples.

Results

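The genes described here are the cyclins, cyclin-dependent kinases (CDKs) and CDK inhibitors that act in G1, the phase of the cell cycle before DNA is copied. They were chosen by gene name from the count and FPKM tables, and 10 of the 58735 rows carried these names: the D cyclins *CCND1*, *CCND2* and *CCND3*, the E cyclins *CCNE1* and *CCNE2*, the kinases *CDK4*, *CDK6* and *CDK2*, and the CIP/KIP inhibitors *CDKN1A* (p21) and *CDKN1B* (p27).

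RNA was sequenced from H2452, an established human pleural mesothelioma line, in 3 sgCtrl libraries and 3 sgNF2-1 libraries. The sgCtrl cells carried a scrambled sgRNA and the labels call them WT. The sgNF2-1 cells carried a guide against *NF2*, the gene of the tumour suppressor Merlin, and the labels call them NF2-KO. Both groups had received the same kind of lentiviral vector, in which a U6 promoter drives the guide and an SFFV promoter drives Cas9 with an mCherry reporter, so Cas9 was common to both. The sequenced knockout was made with 1 guide in 1 line, all cells grew in RPMI-1640 with serum, and the labels do not say that the replicates were separate cultures. The p-values therefore measure the spread between these libraries, which may be technical.

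In G1 the D cyclins bind CDK4 or CDK6 and start to phosphorylate the retinoblastoma protein, which releases E2F transcription factors. E2F then raises cyclin E, which binds CDK2 and carries the cell into S phase. p21 and p27 bind these complexes, inhibit cyclin E with CDK2, and help cyclin D to assemble with its kinases. Merlin, the *NF2* product, acts upstream of the Hippo kinases and restrains growth at high cell density, and the INK4 inhibitors of CDK4 and CDK6 at *CDKN2A* and *CDKN2B* are often deleted in mesothelioma.

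The RefSeq promoter table (GRCh38.p14) gave 9 windows for 6 of the 10 genes, and windows of *CCND1*, *CCND2*, *CCNE2* and *CDK2* were not used here. The 250 bases before each listed start were searched on both strands for motifs of known factors. The GC box, which *SP1*-type factors bind, was searched as GGGCGG. The E-box, which *MYC* and related factors bind, was searched as CACGTG. The site of the TEAD factors, the DNA-binding partners of YAP, was searched as GGAATG. E2F-type letters were searched as TTTCCCGC, TTTCGCGC, TTTGCCGC and TTTGGCGC. The windows of *CDK6* and *CCND3* are shown because these genes moved in opposite directions and their calls held under every alternative tried, that of *CDK4* because it is the close relative of *CDK6* that was not called, and that of *CCNE1* as a low and variable gene. Capitals mark the GC boxes in *CDK6* and *CCNE1*, the TEAD-type letters in *CCND3* and the E-boxes in *CDK4*, as written above or as the reverse complement, and each sequence reads 5′ to 3′ on the strand of its gene.
CCND3: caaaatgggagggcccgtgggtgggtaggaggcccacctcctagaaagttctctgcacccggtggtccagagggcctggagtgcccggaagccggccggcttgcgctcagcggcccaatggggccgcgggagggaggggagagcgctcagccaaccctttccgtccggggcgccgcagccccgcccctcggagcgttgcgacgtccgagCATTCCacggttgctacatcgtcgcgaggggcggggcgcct
CDK6: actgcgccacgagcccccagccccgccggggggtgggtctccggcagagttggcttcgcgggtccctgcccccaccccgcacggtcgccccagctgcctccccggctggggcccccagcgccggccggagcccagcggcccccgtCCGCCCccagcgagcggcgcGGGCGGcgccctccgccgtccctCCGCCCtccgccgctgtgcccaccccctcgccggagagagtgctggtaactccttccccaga
CDK4: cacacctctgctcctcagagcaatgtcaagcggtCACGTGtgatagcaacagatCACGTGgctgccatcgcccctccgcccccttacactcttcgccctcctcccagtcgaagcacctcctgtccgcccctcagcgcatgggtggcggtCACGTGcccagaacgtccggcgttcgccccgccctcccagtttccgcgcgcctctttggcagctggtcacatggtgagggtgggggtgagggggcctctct
CCNE1: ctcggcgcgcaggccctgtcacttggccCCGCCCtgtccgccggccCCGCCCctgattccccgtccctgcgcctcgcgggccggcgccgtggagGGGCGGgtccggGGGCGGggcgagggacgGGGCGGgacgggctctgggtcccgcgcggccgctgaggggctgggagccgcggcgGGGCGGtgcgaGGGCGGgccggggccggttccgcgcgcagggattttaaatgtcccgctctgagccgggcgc

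The *CDK6* window shown, at chr7:92836574-92836823 on the minus strand, held 3 GC boxes, while the other window listed for that gene held 0. The *CCNE1* window at chr19:29811741-29811990 on the plus strand held 7. GC boxes were not particular to these genes. The *CCND3* windows held 5, 2 (the one shown) and 0, and the windows of *CDKN1A*, *CDK4* and *CDKN1B* held 4, 3 and 1. A GC box was present in 42.6% of all 35116 promoter windows of this length. The *CCND3* window at chr6:41941809-41942058, on the minus strand, was picked from 3 listed for that gene because it held a TEAD-type match, 1 in all, and 11.9% of windows held such letters. The *CDK4* window at chr12:57752311-57752560 on the minus strand held 3 E-boxes, a motif present in 6.34% of windows. None of the 9 windows held the E2F-type letters, which occurred in 2.79% of all windows. A GC box and an E2F-type site can share letters, but neither contains the other. A match is a description of the sequence, not a measured site.

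The libraries held 14782423 to 17416463 counts and their TMM factors, which correct the totals for composition, lay between 0.965 and 1.02. Levels are given as CPM, counts relative to the TMM-scaled library total, when a gene is compared between groups, and as FPKM, which also divides by gene length, when genes are compared with each other. The chi-square per degree of freedom between count profiles was 5.17 to 12.6 for pairs within a group and 40.1 to 52.7 for pairs across groups, so no library was a copy of another. On the second principal component, replicate 3 of each group lay apart from the other libraries of its group. Both lay on the same side, at -21.4 in sgCtrl and -9.65 in sgNF2-1, with the other libraries between 4.25 and 10.6. *NF2* itself measured 73.7, 72.9 and 67.5 CPM in sgCtrl and 39.3, 52.0 and 41.4 CPM in sgNF2-1, with a log2 fold change of -0.69 and no overlap, and a cut by Cas9 need not remove the RNA. Of 12 mesothelial and mesothelioma markers 9 reached a mean of 1 FPKM, and *UPK3B*, *LRRN4* and *KRT5* did not. Of the 10 tested 4 (40%) were called higher, among them *KRT7* (log2 fold change 1.20) and *MSLN* (0.66), against 17.7% of all tested genes. Another 3 (30%) were called lower, *PDPN* (-1.28), *WT1* (-1.04) and *KRT19* (-0.94), against 16.6%. The summed level of the 12 markers overlapped between the groups (788 to 882 FPKM in sgCtrl and 751 to 909 FPKM in sgNF2-1). Endothelial and fibroblast markers were all below 1 FPKM, with sums of 0.800 to 1.11 and 0.686 to 0.937 FPKM in sgCtrl and lower ones of 0.267 to 0.455 and 0.0858 to 0.162 FPKM in sgNF2-1. Of 6 leukocyte markers only *CD14* was above 1 FPKM, with a summed leukocyte level of 67.2 to 74.3 FPKM in sgCtrl and 32.0 to 35.1 FPKM in sgNF2-1. *PTPRC*, which marks leukocytes in general, had 0 counts in every library, and the part of these marker differences in the results on the G1 genes was not tested.

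Among the G1 genes, *CDK6* rose and *CCND3* and *CCNE2* fell in sgNF2-1, with calls that held in every alternative tried on the counts. *CCNE1*, *CDK2* and *CDKN1B* were also called lower and *CDKN1A* higher, but each lost the call in some alternatives. Counts were compared by the quasi-likelihood F-test of edgeR, adjusted by Benjamini-Hochberg over 14179 genes, and a gene was called at an adjusted p under 0.05. Of the 10 genes 9 passed the filter on low counts, and all 9 lay above its cutoff of 0.645 CPM in every library. Of these 9, 2 were called higher, against 17.7% of all tested genes, and 5 were called lower, against 16.6% of all tested genes. The number called lower was 2 without sgCtrl replicate 3 or sgNF2-1 replicate 1 and 3 without each of the other libraries in turn or with no filter. The number called higher was 1 in 8 of 14 alternatives, among them those without sgCtrl replicate 1 or 2 or sgNF2-1 replicate 2 or 3. With a log2 fold change beyond 0.5 also required, 1 was higher (*CDK6*), against 8.42% of all tested genes, and 3 were lower (*CCND3*, *CCNE1* and *CCNE2*), against 9.32%. The median log2 fold change of the 9 was -0.24 and that of all tested genes was -0.0025.

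**Figure D1:**
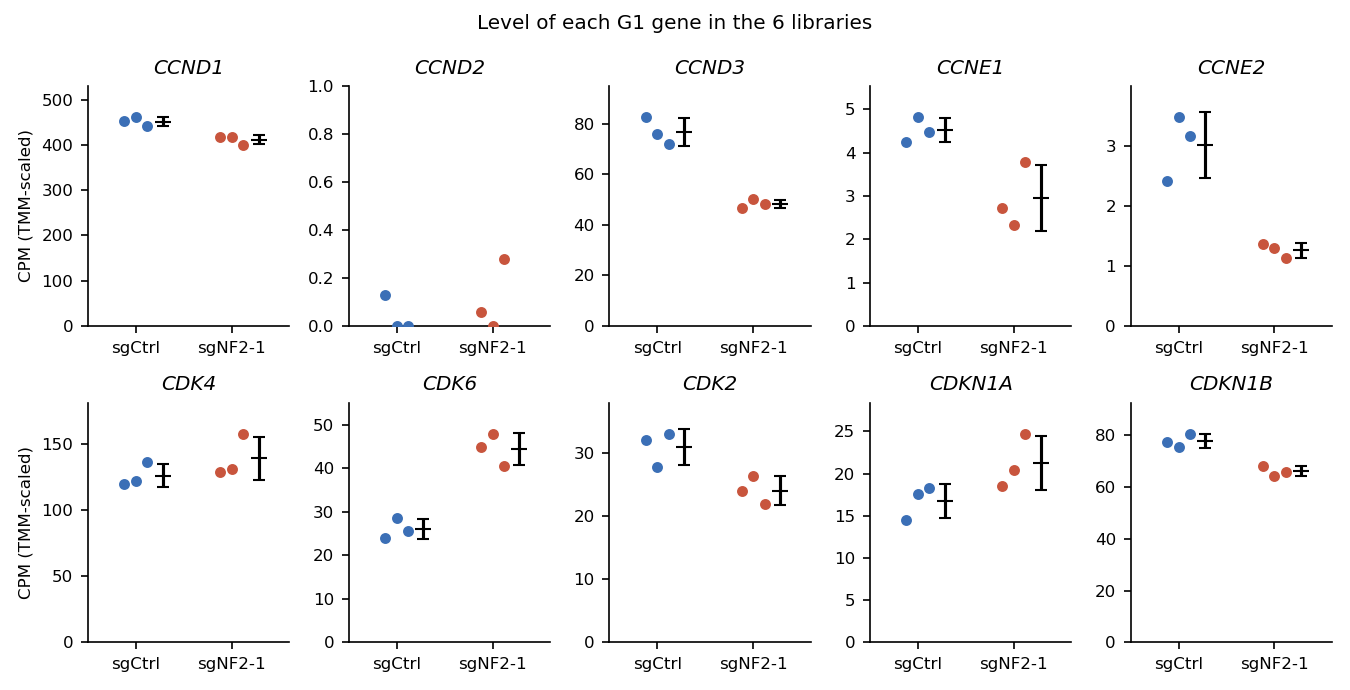
Level of each of the 10 genes in CPM (counts relative to the TMM-scaled library total, linear axes from 0), with 1 point per library, sgCtrl in blue and sgNF2-1 in red, and with the mean and SD of 3 libraries in black for every gene but *CCND2*. The groups are separate for *CCND3*, *CCNE2* and *CDK6*, overlap for *CDK4*, and *CCND2* is at 0 to 4 counts.

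In 8 of the 9 genes the groups did not overlap in CPM, 2 with sgNF2-1 higher and 6 with it lower. Across all tested genes 23.2% were higher without overlap and 22.2% were lower. An exact two-sided permutation test of 3 libraries against 3 cannot give a p below 0.10. Groups without overlap always give that value, so the test adds nothing for these 8 genes. The cells were sequenced in bulk, so a change in the share of cells in a phase of the cycle and a change in RNA per cell cannot be told apart.

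The D cyclins, which carry growth signals to *CDK4* and *CDK6*, differed from each other. *CCND3* (ENSG00000112576, GRCh38 chr6:41934933-42050357, minus strand) measured 82.5, 76.0 and 71.8 CPM in sgCtrl and 46.7, 50.1 and 48.2 CPM in sgNF2-1. Every sgNF2-1 library was below every sgCtrl library. The mean went from 76.8 ± 5.40 (SD, n = 3) to 48.3 ± 1.69 CPM (SD, n = 3), 62.9% of the control level. The log2 fold change was -0.67 (standard error, SE, 0.089, 95% interval -0.85 to -0.48, adjusted p = 2.2e-06 by edgeR's quasi-likelihood), and it stayed between -0.71 and -0.61 in all 14 alternatives. No gene that overlaps *CCND3* had a count in these libraries, and its processed pseudogene copies had at most 1 count.

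*CCND1* (ENSG00000110092, chr11:69641087-69654474, plus strand) had the highest level of the 10 genes in both groups, as CPM and as FPKM. It measured 453, 461 and 442 CPM in sgCtrl and 417, 417 and 400 CPM in sgNF2-1. The groups did not overlap, with every sgNF2-1 library lower. The sgNF2-1 mean was 91.1% of the control mean, and the log2 fold change of -0.14 (SE 0.078, 95% interval -0.30 to 0.03) was not called (adjusted p = 0.19 by edgeR's quasi-likelihood). Its interval leaves out a fall as large as that of *CCND3*. *LTO1*, on the opposite strand, shares 1399 bases with the gene and rose by a log2 fold change of 0.41 (adjusted p = 0.0071 by edgeR's quasi-likelihood), with a mean count of 346 in the controls and 460 in sgNF2-1, and *CCND1* had a mean of 6814 counts over all 6 libraries. Whether the counting used strand is not given in the sources used here.

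*CCND2* (ENSG00000118971, chr12:4273772-4305350, plus strand), the third D cyclin, was nearly silent, with 2, 0 and 0 counts in the controls and 1, 0 and 4 in sgNF2-1. Each group had a library at 0. A count of 0 allows up to 3 counts, or 0.17 to 0.21 CPM depending on the library, so no fold is given, and with no filter on low counts the adjusted p was 0.66 by edgeR's quasi-likelihood. This limit covers counting error only.

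The E cyclins, which activate *CDK2* at the end of G1, were both lower in sgNF2-1. *CCNE2* (ENSG00000175305, chr8:94879770-94896678, minus strand) measured 2.41, 3.47 and 3.16 CPM in sgCtrl and 1.36, 1.296 and 1.12 CPM in sgNF2-1, from 38, 57 and 48 counts and 24, 20 and 16 counts. Every sgNF2-1 library was lower. The sgNF2-1 mean was 41.8% of the control mean, a log2 fold change of -1.25 (SE 0.31, 95% interval -1.88 to -0.62, adjusted p = 0.0025 by edgeR's quasi-likelihood). This was the largest change among the 10 genes, 476th by size among the 14179 tested, and it was called in all 14 alternatives. *INTS8* and *NDUFAF6* overlap it on the opposite strand by 1977 and 912 bases and were not called (log2 fold changes of -0.20 and 0.24). They had means of 416 and 86.7 counts in sgCtrl, against 33.8 counts for *CCNE2* over all 6 libraries. Whether *CCNE2* shares reads with them was not tested.

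*CCNE1* (ENSG00000105173, chr19:29811898-29824308, plus strand) measured 4.25, 4.81 and 4.48 CPM in sgCtrl and 2.73, 2.33 and 3.79 CPM in sgNF2-1. The groups did not overlap, although replicate 3 of sgNF2-1 came close to the controls. The log2 fold change was -0.62 (SE 0.24, 95% interval -1.11 to -0.13) at an adjusted p of 0.045 by edgeR's quasi-likelihood. The counts behind it were 67, 79 and 68 in sgCtrl and 48, 36 and 54 in sgNF2-1. The call was lost in 7 of 14 alternatives, among them DESeq2 (adjusted p = 0.11), no filter (0.063) and the removal of any library other than sgNF2-1 replicate 3, with adjusted p-values of 0.062 to 0.18 by edgeR's quasi-likelihood.

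Of the G1 kinases, *CDK6* rose, *CDK2* fell and *CDK4* was not called. *CDK6* (ENSG00000105810, chr7:92604921-92836594, minus strand), a partner of the D cyclins, measured 23.9, 28.6 and 25.6 CPM in sgCtrl and 44.9, 47.9 and 40.4 CPM in sgNF2-1. All 3 sgNF2-1 libraries were above all 3 controls. The mean rose from 26.1 ± 2.39 to 44.4 ± 3.77 CPM (SD, n = 3 each), 170% of the control level. The log2 fold change was 0.77 (SE 0.11, 95% interval 0.55 to 0.99, adjusted p = 3.7e-06 by edgeR's quasi-likelihood), and the 14 alternatives gave 0.71 to 0.84, each called. Of the 20 tested genes nearest to *CDK6* on the chromosome 1 was called higher and 6 were called lower, with a median of -0.12. Across all tested genes 17.7% were called higher and 16.6% lower. The 20 nearest to *CCND3* had 7 called higher and 4 lower (median 0.024), and the 20 nearest to *CCNE2* had 4 and 2 (median -0.034).

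*CDK4* (ENSG00000135446, chr12:57747727-57756013, minus strand), the other partner of the D cyclins, measured 120, 122 and 137 CPM in sgCtrl and 129, 131 and 158 CPM in sgNF2-1. The groups overlapped, and replicate 3 was the highest library in each. The log2 fold change of 0.14 (SE 0.090, 95% interval -0.05 to 0.33) was not called (adjusted p = 0.24 by edgeR's quasi-likelihood). Without sgNF2-1 replicate 3, the highest of all, it was 0.05. The whole interval for *CDK4* lies below that for *CDK6*. *TSPAN31*, which shares 2485 bases with *CDK4* on the opposite strand, was not called (log2 fold change -0.15), while the overlapping gene ENSG00000139266 (*MARCHF9*, with 87.3 and 159 mean counts) rose by a log2 fold change of 0.86.

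*CDK2* (ENSG00000123374, chr12:55966769-55972784, plus strand), the partner of cyclin E, measured 32.2, 27.8 and 33.1 CPM in sgCtrl and 24.0, 26.4 and 21.9 CPM in sgNF2-1. The groups did not overlap, with a gap of little more than 1 CPM between replicate 2 of each. The log2 fold change was -0.36 (SE 0.11, 95% interval -0.60 to -0.13, adjusted p = 0.014 by edgeR's quasi-likelihood). The call was lost without sgCtrl replicate 3 (adjusted p = 0.0505 by edgeR's quasi-likelihood), sgNF2-1 replicate 1 (0.052) or sgNF2-1 replicate 3 (0.062). *PMEL* spans the whole gene on the opposite strand with means of 5.67 and 10.7 counts, against 434 counts for *CDK2* over all 6 libraries.

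**Figure D2:**
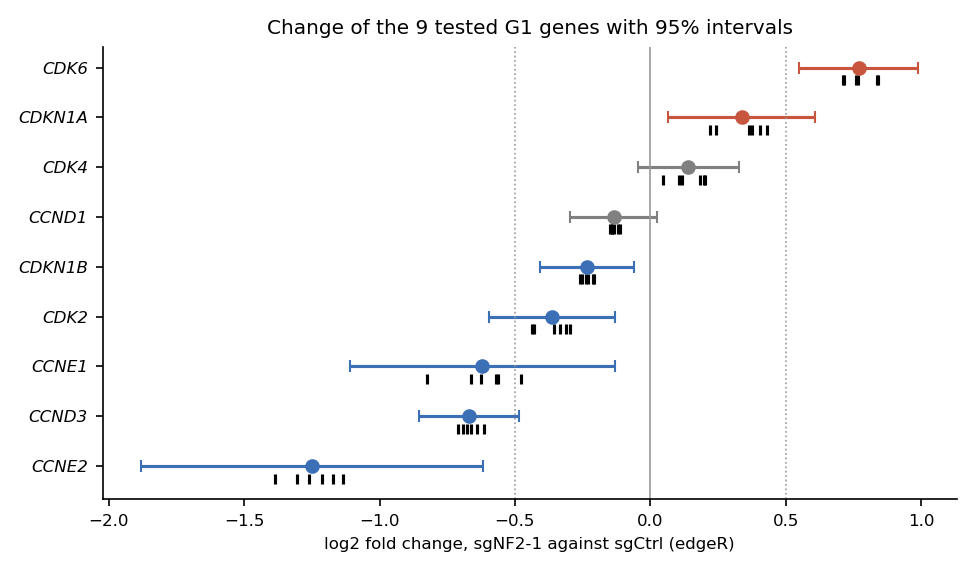
Log2 fold change of sgNF2-1 against sgCtrl from edgeR for the 9 tested genes, with 95% intervals, short black ticks for the value with each library left out and dotted lines at a log2 fold change of -0.5 and 0.5. Red genes were called higher, blue lower and grey not called, and only *CDK6* (0.55 to 0.99) and *CCNE2* (-1.88 to -0.62) have intervals wholly beyond the dotted lines.

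Of the CIP/KIP inhibitors, *CDKN1A* was called higher and *CDKN1B* lower, both close to the threshold. *CDKN1A* (ENSG00000124762, chr6:36676460-36687339, plus strand), the p21 gene, measured 14.5, 17.6 and 18.3 CPM in sgCtrl and 18.6, 20.5 and 24.7 CPM in sgNF2-1. The groups did not overlap, but the lowest sgNF2-1 library was close to the highest control. The log2 fold change was 0.34 (SE 0.13, 95% interval 0.07 to 0.61, adjusted p = 0.049 by edgeR's quasi-likelihood). The call was lost in 8 of 14 alternatives, with DESeq2 at an adjusted p of 0.087 and the fits without sgCtrl replicate 1 or without sgNF2-1 replicate 3 at 0.21 and 0.23 by edgeR's quasi-likelihood. These last 2 fits gave log2 fold changes of 0.24 and 0.22.

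*CDKN1B* (ENSG00000111276, chr12:12715058-12722371, plus strand), the p27 gene, measured 77.5, 75.4 and 80.6 CPM in sgCtrl and 68.1, 64.3 and 65.9 CPM in sgNF2-1. Every sgNF2-1 library was lower, and the spread within each group was small. The sgNF2-1 mean was 84.9% of the control mean, a log2 fold change of -0.24 (SE 0.084, 95% interval -0.41 to -0.06, adjusted p = 0.032 by edgeR's quasi-likelihood). DESeq2 made the same call (adjusted p = 0.034), but the call was lost with no filter (0.11) and in each of the 6 fits that left out a library, with adjusted p-values of 0.0504 to 0.13 by edgeR's quasi-likelihood. AC008115.3, a transcript inside the gene on the same strand, had means of 10.7 and 4 counts, against 1136 counts for *CDKN1B* over all 6 libraries.

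The calls on counts thus separate into those that held in every alternative and those that did not. *CCND3*, *CCNE2* and *CDK6* were called in all 14. *CDK2* lost the call in 3, *CCNE1* and *CDKN1B* in 7 each, and *CDKN1A* in 8, always with the direction kept. *CCND1* and *CDK4* were called in none. The 14 include the main fit read at the unadjusted p, in which a called gene cannot lose its call or change direction.

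**Figure D3:**
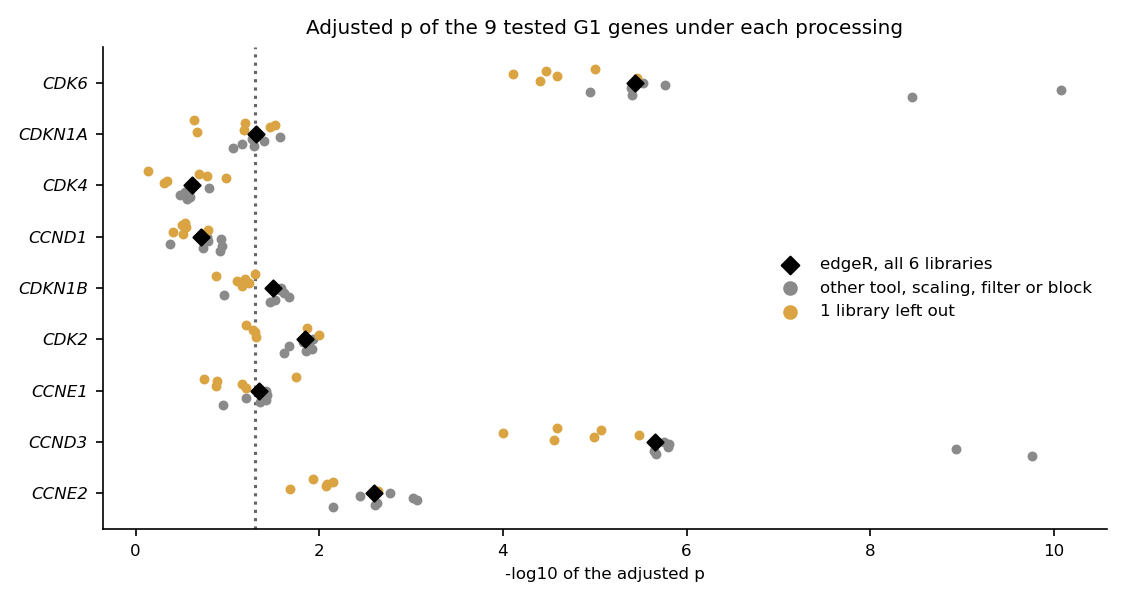
Minus log10 of the adjusted p of the 9 tested genes (x axis) with all 6 libraries in edgeR (black diamonds), with another tool, scaling, filter or the replicate block (grey) and with 1 library left out (gold). Points left of the dotted line, at an adjusted p of 0.05, are not called, and *CDK6*, *CCND3* and *CCNE2* have no point there.

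The deposited FPKM values, which derive from the same counts, gave the same directions. On log2(FPKM + 1), a scale that understates changes of low genes, limma with Benjamini-Hochberg adjustment over 13038 genes called 1 of 8 tested members higher (*CDK6*), against 14.3% of all tested genes, and 4 lower (*CCND3*, *CCNE1*, *CDK2* and *CDKN1B*), against 14.1%. *CDKN1A*, at a difference of 0.28 on that scale, had an adjusted p of 0.11 in limma and was not called. Over 9 alternatives on FPKM the call was lost in 7 for *CCNE1*, in 6 for *CDK2* and in 2 for *CDKN1B*. *CDK6* and *CCND3* kept it in all 9, and *CDKN1A* was called in 1. *CCNE2* and *CCND2* were below the mean of 0.5 FPKM that the test required. With no filter on FPKM 3 members were called, and *CCNE2* was not among them.

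Per length, *CCND1* led the D cyclins and *CDK4* the kinases. In sgCtrl the mean levels ran from *CCND1* (88.7 FPKM) through *CDK4* (37.8 FPKM), *CDKN1B* (26.2 FPKM), *CCND3* (12.5 FPKM), *CDK2* (7.55 FPKM), *CDKN1A* (5.21 FPKM), *CDK6* (2.01 FPKM) and *CCNE1* (1.68 FPKM) to *CCNE2* (0.650 FPKM), with *CCND2* close to 0, and the ranges of neighbours in this order down to *CCNE2* did not overlap. In sgNF2-1 the order was the same but for *CDKN1A* (6.54 FPKM), which stood above *CDK2* (5.81 FPKM). There the ranges of *CDKN1A* and *CDK2* overlapped, as did those of *CCND3* (7.82 FPKM) and *CDKN1A*. This order rests on 1 listed length per gene, 12260 bases for *CDK6*, 3894 for *CDK2* and 3050 for *CDKN1A*. Which transcripts the cells used was not tested. In CPM, *CDK6* in sgNF2-1 (44.4) was above *CDK2* (24.1) and *CDKN1A* (21.3).

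**Figure D4:**
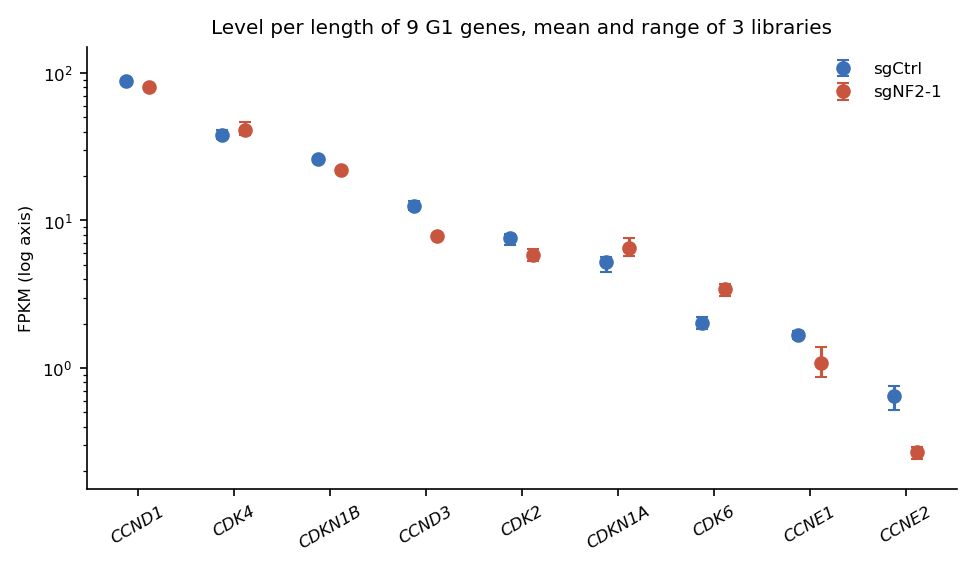
Mean FPKM (points, log axis) with the lowest and highest of 3 libraries (bars) for the 9 genes other than *CCND2*, in the order of their sgCtrl level, sgCtrl in blue and sgNF2-1 in red. *CCND1* is highest in both groups (88.7 and 80.0 FPKM), and *CDK6* rises from 2.01 to 3.40 FPKM while staying below *CDKN1A* and *CDK2*.

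Ratios of FPKM compare the genes of a family within each library. The *CCND1* to *CCND3* ratio was 6.59, 7.29 and 7.39 in sgCtrl and 10.7, 10.0 and 9.98 in sgNF2-1. *CCND1* thus made up 87.6% ± 0.698 of the D cyclin FPKM in sgCtrl and 91.1% ± 0.339 in sgNF2-1 (SD, n = 3 each), without overlap. The summed D cyclin level was 101 ± 2.59 FPKM in sgCtrl and 87.8 ± 2.10 FPKM in sgNF2-1 (SD, n = 3 each), also without overlap.

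Among the kinases, the share of *CDK6* in the summed FPKM of *CDK2*, *CDK4* and *CDK6* was 4.06%, 4.86% and 3.89% in sgCtrl and 7.25%, 7.51% and 5.61% in sgNF2-1. *CDK6* thus stayed the minor D cyclin kinase, and its ratio to *CDK4* went from 0.0535 ± 0.00628 to 0.0836 ± 0.0152 (SD, n = 3 each). The summed level of the 3 kinases overlapped between the groups, at 47.4 ± 3.03 and 50.5 ± 4.06 FPKM (SD, n = 3 each). The ratio of *CDK2* to *CDK4* was 0.200 ± 0.0168 in sgCtrl and 0.143 ± 0.0265 in sgNF2-1 (SD, n = 3 each), without overlap.

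The summed E cyclin level was 2.10, 2.54 and 2.34 FPKM in sgCtrl and 1.29, 1.14 and 1.63 FPKM in sgNF2-1. The controls were all higher. The ratio of *CDKN1A* to *CDKN1B* was 0.199 ± 0.0233 in sgCtrl and 0.297 ± 0.0474 in sgNF2-1 (SD, n = 3 each), again without overlap, and *CDKN1B* remained the more abundant inhibitor. The summed CIP/KIP level relative to the summed D cyclins overlapped between the groups, at 0.311 ± 0.0196 and 0.326 ± 0.0177 (SD, n = 3 each).

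The other CDK inhibitors were led by *CDKN2C* (p18), an INK4 inhibitor of *CDK4* and *CDK6*. It fell from 61.1 ± 3.40 to 28.1 ± 1.67 CPM (SD, n = 3 each), for a log2 fold change of -1.12 (SE 0.097, adjusted p = 2.4e-09 by edgeR's quasi-likelihood). *CDKN2A* and *CDKN2B*, the INK4 genes named above, had 0 counts in all 6 libraries, which allows up to 0.17 to 0.21 CPM. *CDKN2D* and *CDKN1C* were not called (log2 fold changes of -0.34 and 0.24, with adjusted p-values of 0.086 and 0.47 by edgeR's quasi-likelihood). Of 3 tested inhibitors 0 were thus called higher, against 17.7% of all tested genes, and 1 was called lower, against 16.6%. *CDKN2D* was called lower without sgNF2-1 replicate 1, with a log2 fold change of -0.51 (adjusted p = 0.025 by edgeR's quasi-likelihood), and *CDKN1C* changed sign without sgNF2-1 replicate 3.

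Downstream of the G1 kinases, the pocket proteins, E2F and DP factors had 1 of 13 members called higher (7.69%, against 17.7% of all tested genes) and 4 called lower (30.8%, against 16.6%), with a median log2 fold change of -0.15. *RB1*, the substrate of cyclin D with *CDK4* or *CDK6*, had a log2 fold change of -0.20 and was not called (adjusted p = 0.11 by edgeR's quasi-likelihood). *E2F1*, an activator of S phase genes, fell from 52.9 ± 7.09 to 34.97 ± 2.16 CPM (SD, n = 3 each), for a log2 fold change of -0.60. *E2F2*, another activator, fell by 0.69 on the log2 scale, and *E2F8*, a repressor that is itself an E2F target, fell by 0.85. *E2F5* rose by a log2 fold change of 0.68 at a mean of 3.06 CPM in sgCtrl, with overlapping groups, and its call was lost with DESeq2 (adjusted p = 0.094) and without sgCtrl replicate 1 or 2 or sgNF2-1 replicate 1 or 3.

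Genes that E2F is known to induce for S phase were mostly lower in sgNF2-1. Of 20 tested, 14 were called lower and 1 higher, with a median log2 fold change of -0.34. Of all tested genes 16.6% were called lower and 17.7% higher. *PCNA*, the sliding clamp of the replication fork, fell from 155 ± 6.74 to 85.3 ± 5.00 CPM (SD, n = 3 each), for a log2 fold change of -0.86 (adjusted p = 1.2e-08 by edgeR's quasi-likelihood). *RRM2* and *RRM1*, the subunits of ribonucleotide reductase, fell by 0.61 and 0.58 on the log2 scale. *CCNA2*, the cyclin that follows cyclin E on *CDK2*, fell by 0.28, and its call was lost without sgCtrl replicate 1 or 3 or sgNF2-1 replicate 2 or 3 (adjusted p-values of 0.054 to 0.0998 by edgeR's quasi-likelihood). The gene called higher was *MCM7*, a subunit of the replicative helicase, with a log2 fold change of 0.38, and it was picked after its values were seen. From 11 to 13 of these genes were called lower in the 6 fits that each lacked a library.

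Genes of G2 and M phase were also called lower more often than higher. Of 16 tested, 43.8% (7) were called lower and 6.25% (1) higher, against 16.6% and 17.7% of all tested genes. The median log2 fold change was -0.14. The gene called higher was *PLK1*, a mitotic kinase picked after its values were seen, at 0.37. *KIF11*, a spindle motor, *BUB1B*, a spindle checkpoint kinase, and *CDK1*, the mitotic CDK, fell by 0.47, 0.46 and 0.44 on the log2 scale. *MKI67*, whose product Ki-67 marks cycling cells, fell from 96.2 ± 11.7 to 71.9 ± 6.34 CPM (SD, n = 3 each), for a log2 fold change of -0.42. These are RNA levels, and growth was not measured in these libraries. The paper reports that loss of *NF2* made the cells more aggressive in culture and in mice.

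A list of 8 regulators of CDK activity held *CDC25A*, *CDC25B*, *CDC25C*, *WEE1*, *PKMYT1*, *CDK7*, *CCNH* and *MNAT1*. Of these, 1 was called higher and 1 lower, 12.5% each way, with a median near 0. Of all tested genes 17.7% were called higher and 16.6% lower. *CDK7*, the kinase of the complex that activates CDKs, rose by a log2 fold change of 0.62. *CDC25A*, the phosphatase that removes the inhibitory phosphate from *CDK2*, fell by 0.58 on the log2 scale, and its call was lost with DESeq2 (adjusted p = 0.061) and without sgCtrl replicate 1 or 2 or sgNF2-1 replicate 2 (adjusted p-values of 0.063 to 0.14 by edgeR's quasi-likelihood). Among 13 ubiquitin ligase subunits and cofactors that act on G1 cyclins and CIP/KIP inhibitors, 3 were called higher and 3 lower. These shares, 23.1% each way, were near those of all tested genes (17.7% and 16.6%). *SKP2*, the F-box protein that directs p27 to degradation, fell by 0.57 on the log2 scale, and *DTL*, a cofactor for p21 degradation, fell by 0.49. *FBXO31*, an F-box protein for cyclin D1, rose by 0.70.

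Among transcription factors that act on G1 genes 5 of 16 tested were called higher (31.2%, against 17.7% of all tested genes) and 3 were called lower (18.8%, against 16.6%), with a median log2 fold change of -0.05. *MYC*, which drives growth and cell cycle genes, rose from 159 ± 1.28 to 335 ± 6.67 CPM (SD, n = 3 each), for a log2 fold change of 1.07 (adjusted p = 1.1e-10 by edgeR's quasi-likelihood). *FOSL1*, a subunit of AP-1, rose by 1.16, and *KLF6*, a zinc finger factor known to bind the *CDKN1A* promoter, rose by 0.59.

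**Figure D5:**
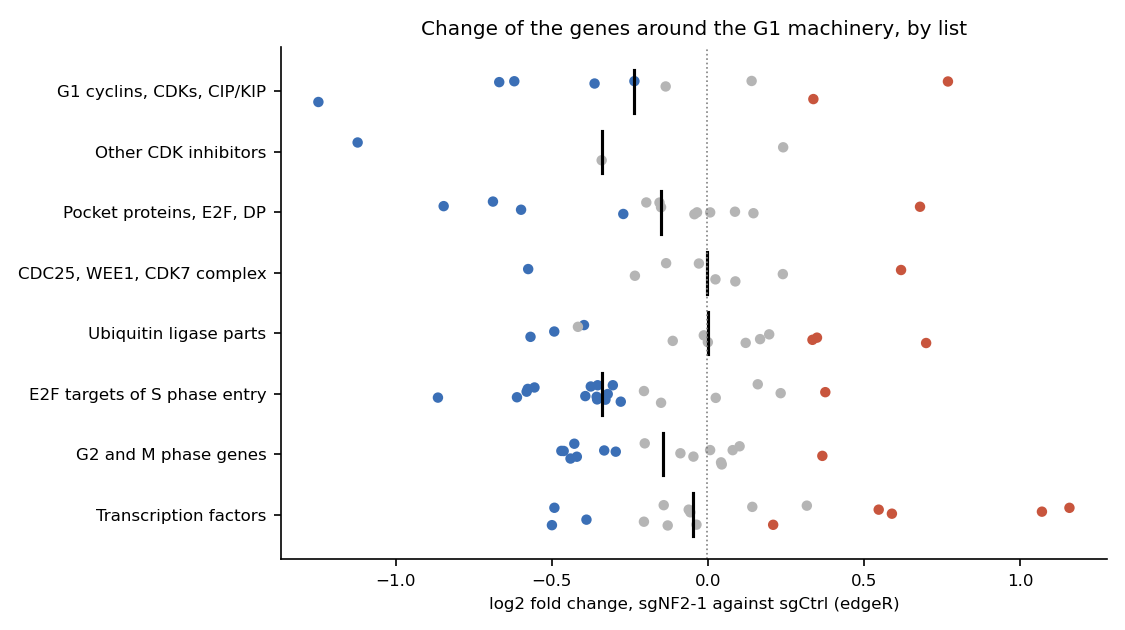
Log2 fold change of sgNF2-1 against sgCtrl from edgeR (x axis) for each tested gene of the lists (1 point per gene, with vertical jitter only for legibility), red where called higher, blue where called lower and grey where not called. Black bars are list medians and the dotted line is the median of all 14179 tested genes, and the E2F targets have the lowest median of the lists with more than 3 tested genes, at -0.34.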

How the data were processed

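Total RNA of cultured cells was sequenced. The authors deposited 1 table of unnormalized gene counts and 1 table of FPKM values, each with 6 libraries. The submitters' processing notes name HISAT2, StringTie 1.3.3b, featureCounts 1.5.0-p3 and the build hg38, and whether counting used strand is not given in the sources used here. The deposited FPKM values equal the count divided by gene length and by a depth per library, within rounding. The authors' methods name DESeq2 with a log2 fold change limit of 0.5. Groups and replicate numbers came from the sample titles. Counts were filtered with edgeR 4.0.16 (filterByExpr, minimum count 10, minimum total 15), scaled by TMM and tested between the groups by quasi-likelihood in R 4.3.3, and adjusted by the Benjamini-Hochberg method. FPKM values were tested with limma 3.58.1 on log2(FPKM + 1) for genes with a mean of at least 0.5. The procedures were tested on simulated data. Alternatives were DESeq2 1.42.0, its size factors, library totals, protein-coding genes only, the replicate block, a stricter filter (10 counts in every library) or none, the unadjusted p, and the removal of each library in turn. The FPKM test was repeated with a pseudocount of 0.1, unfiltered, blocked and without each library.

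The members and gene lists were chosen with earlier results of these data known. The named genes are all members, *NF2*, the 3 called genes with the largest change in each list, a set of regulators named whatever their values, overlapping genes with a mean of at least 10 counts, and the mesothelial markers, and others are said to be picked after their values were seen. Some results that the rule covers are not reported here.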

Additional observations from a re-analysis of the deposited data

How the results depend on the processing

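*CCND3*, *CCNE2* and *CDK6* kept their direction and their call in all 14 alternatives on counts. On FPKM *CCND3* and *CDK6* kept them in all 9, and *CCNE2* was not called in the unfiltered fit. Of the G1 genes, 2 were called higher and 5 lower. The number called higher was 1 with DESeq2, with its size factors, with library totals and with at least 10 counts in every library, and 1 to 2 when a library was left out. The number called lower was 3 with no filter and 2 to 3 when a library was left out. On FPKM, 5 were called, 3 with no filter and 2 to 4 when a library was left out. The cause was not tested, beyond the smaller number of libraries in the last case. *CDKN1C*, which was never called, went from a log2 fold change of 0.24 to -0.040 without sgNF2-1 replicate 3 and ranged from -0.040 to 0.41 over the fits that lacked a library. Over all tested genes the deviations of same-numbered libraries from their group means correlated weakly (-0.038, 0.071 and 0.059), so the numbers were not taken as pairs. Replicate 3 of both groups still lay on the same side of the second principal component. Whether these libraries shared a batch was not tested. With the replicate block 2 genes were again called higher and 5 lower, and on FPKM 4. The depth limits *CCND2*, *CCNE1* and *CCNE2* most.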
